A study of Mus musculus with 6 samples.

Results

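The comparison was between pre-iPSC libraries transfected with an siRNA against Tet1 and libraries transfected with a control siRNA, taken within each of 2 mouse lines, pre2-2 and pre3. The 4 libraries were chosen by their titles, from 6 in the series, and each line gave 1 library per siRNA. The other 2 libraries, 1 untransfected library per line, entered the fit and are given as a reference level. Pre-iPSCs are partially reprogrammed cells: fibroblasts given reprogramming factors that have stopped short of a stable pluripotent state. Both lines were at passage 10 and derived from OG2 mouse embryonic fibroblasts, which carry a GFP reporter under the Pou5f1 promoter, on a mixed background (1/2 129SVJ, with 3/8 C57B6, and 1/8 of CBA). All 6 libraries, untransfected ones included, came from cells grown with LIF, in a medium for mouse embryonic stem cells, and given vitamin C at 50 µg/ml. The labels disagree on timing: vitamin C was added 16 h after transfection and RNA taken 32 h after that in one place, while another gives 48 h from transfection to RNA and 36 h of vitamin C. A sample characteristic names the agent Tet siRNA and the title siTet1, and the cell type field reads MEFs. The labels do not say whether libraries of a line were grown as separate cultures, so p-values measure the spread between these libraries. In groups of 2, with the pairing by line set aside, the smallest p an exact permutation test can reach is 0.333. Keeping the pairs leaves fewer permutations and a larger smallest p.

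Tet1 encodes a dioxygenase that oxidises 5-methylcytosine to 5-hydroxymethylcytosine, a step towards removal of DNA methylation, and vitamin C is a cofactor that raises the activity of this enzyme family. Tet1 is abundant in pluripotent cells, where it sits largely at CpG-rich promoters, and its product is studied as both an aid and a barrier in the late stages of reprogramming. The question of the comparison was which genes differ when Tet1 is reduced in partially reprogrammed cells kept in vitamin C.

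The libraries held 1868640 to 2582803 expected counts, with a count in 13483 to 14113 genes, and 11048 of 20325 genes passed the filter on low counts. Expression is given as CPM, that is counts scaled to the library total after TMM, and changes as log2 differences of siTet1 minus control siRNA. Of 20 fibroblast markers, 16 to 18 had at least 3 counts in a library, and of 10 pluripotency markers 6 to 7 did, with Dppa3 at 0 in these libraries. Summed fibroblast marker TPM was 4752 with control siRNA and 4717 with siTet1 in pre2-2, and 2182 and 2320 in pre3, so both lines kept fibroblast transcripts and pre2-2 held more of them. Summed pluripotency marker TPM was 2539 and 3183 in pre2-2 and 9664 and 10466 in pre3. In bulk libraries such as these, a change in the share of cells of a type and a change in RNA per cell cannot be told apart.

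Tet1 itself was at 250.2, 246 and 154 CPM in pre2-2 and 205, 251 and 159 CPM in pre3, in the order untransfected, control siRNA, siTet1. Both siTet1 libraries lay below all 4 others. Against control siRNA, Tet1 fell by 0.67 (SE 0.13, adjusted p = 0.0043) with edgeR, and the change was alike in the 2 lines, at -0.67 in pre2-2 (95% counting interval -0.88 to -0.47) and -0.66 in pre3 (-0.87 to -0.45). The pooled ratio was 0.629, so most Tet1 transcript remained. The call ended without pre2-2 siTet1 (-0.57) or pre3 control siRNA (-0.60). Here and below, a library named after "without" was the single library left out, and the log2 change of that fit follows in brackets. Such a fit keeps the untransfected libraries of both lines. Its value therefore need not equal the siTet1 minus control siRNA difference in the line left complete. Counting intervals here and elsewhere cover counting error only.

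Within each line the change was 1 library against 1, which gives sizes and no test. In pre2-2, 202 of 10713 genes with a mean of at least 10 counts were 2-fold or more above control siRNA with siTet1 (1.89%) and 103 were 2-fold or more below (0.961%). In pre3 it was 184 of 10363 above (1.78%) and 79 below (0.762%). The spread over all genes was also alike, with an SD of 0.419 in pre2-2 and 0.376 in pre3. The lines were further apart in the difference between control siRNA and untransfected cells, again 1 library against 1. No library was transfected without an siRNA, so effects of transfection and of the siRNA cannot be told apart. Relative to untransfected cells, 424 genes were 2-fold or more higher and 53 lower with control siRNA in pre2-2, and 75 and 79 in pre3, together 4.47% and 1.49% of genes against 2.85% and 2.54% for siTet1 minus control siRNA. The untransfected comparison shares its control siRNA libraries with the siTet1 comparison.

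Genes picked in one line moved the same way in the other, which shares no library with it. Of the 202 genes 2-fold or more higher with siTet1 in pre2-2, 160 passed the count minimum in pre3, and 139 of these were higher there too (86.9%, against 48.3% of 10141 genes measured in both lines). Of the 160, 50 were 2-fold or more higher in pre3 as well (31.2%, against 1.68% of all genes), 0 were 2-fold lower, and the median change was 0.61. Genes lowered 2-fold in pre2-2 repeated to a similar degree: 55 of 65 were lower in pre3 (84.6%, against 51.7%), with 12 lower by 2-fold or more and a median of -0.36. Picked in pre3 and read in pre2-2, 144 of 170 raised genes (84.7%) and 52 of 69 lowered genes (75.4%) kept their direction. Leaving out the interferon, epithelial and pluripotency lists changed these shares little, to 86.5% and 86.4% for genes picked in pre2-2 and 85.5% and 73.0% for those picked in pre3. The 50 genes raised 2-fold in both lines included Spp1, Col18a1, Itga3, Aldh1a3, Robo4, Rdh16, Prg4 and Cntfr, described below. They also held genes outside the naming rule, given here after their values were seen, such as the protease gene Mmp3, the serpin Serpina3n, the platelet-derived growth factor ligand Pdgfb and the homeobox gene Evx1. The 12 genes lowered 2-fold in both were Atp10a, Ifi27l1, Kpna7, Oit1, Rangrf, Tex19.1, Tlx3 and the interferon response genes Irf7, Irgm1, Isg15, Oas2 and Oasl2. Rangrf and Gm4535, which is among the 50, share sequence, and their sum showed no common direction, as described below.

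**Figure D1:**
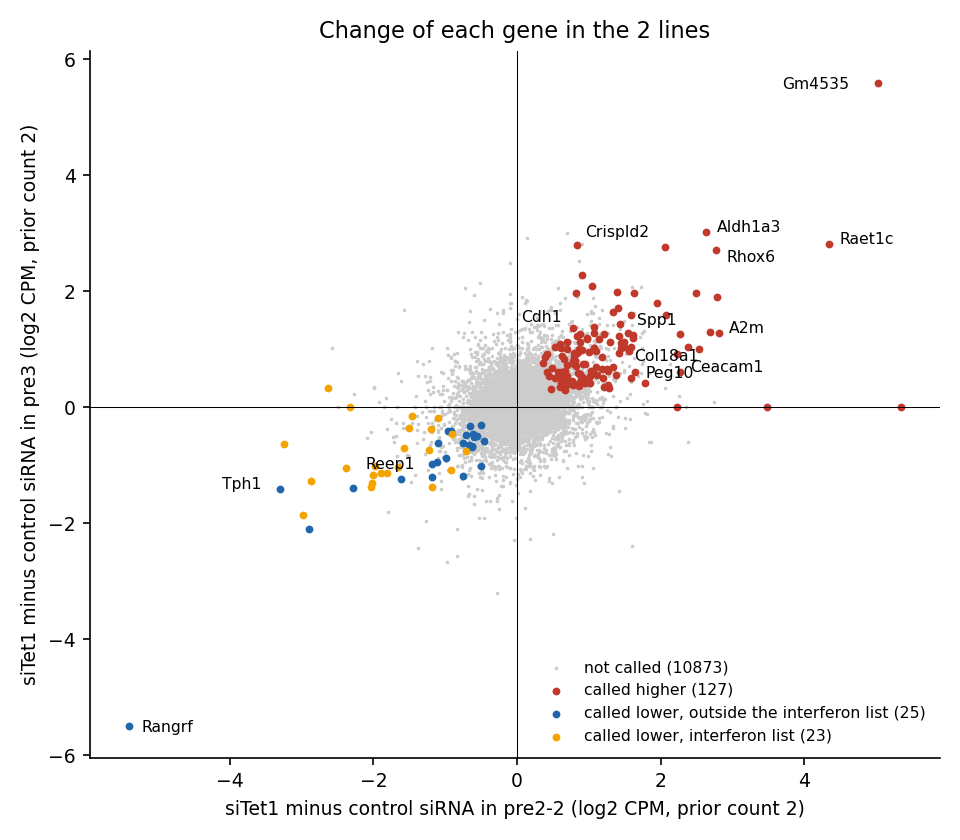
Change of each tested gene in pre2-2 (horizontal) and pre3 (vertical), each point 1 gene as log2 CPM with siTet1 minus log2 CPM with control siRNA, 1 library against 1 per line. Grey points were not called, and the 127 genes called higher (red) lie to the right, while the 48 called lower lie to the left, most of the 23 from the interferon list (orange) changing more in pre2-2 than in pre3. The prior count of 2 shrinks the change of genes with few counts, as several of these were in pre3.

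Over both lines edgeR called 175 genes at an adjusted p under 0.05 (1.58% of those tested), 127 higher (1.15%) and 48 lower (0.434%) with siTet1. These shares, and the 50.7% of tested genes with a positive sign, are the reference for the list counts below. Before adjustment, 1196 genes (10.8%) had a p under 0.05. The called genes were drawn from every expression level, with 1.41 to 1.48% called below 7 in mean log2 CPM and 2.31% at 7 and over. Among the 127 higher genes the median change was 1.01 in pre2-2 and 0.87 in pre3, and 82 changed more in pre2-2. Among the 48 lower genes the medians were -1.18 and -0.75, and 38 changed more in pre2-2. These within-line sizes use a prior count of 2, which shrinks the change of genes with few counts, as several lowered interferon genes were in pre3. The untransfected libraries placed these genes differently. For 120 of the 127 raised genes the siTet1 library was the highest of 3 in both lines, which held for 17.8% of all genes. For the lowered genes outside the interferon list, siTet1 was the lowest of 3 in both lines for 22 of 25, against 16.7% of all genes, whereas in the interferon list it was so for 3 of 23. This order uses the same siTet1 libraries as the calls. Called genes were already picked for siTet1 lying above or below control siRNA, so the shares over all genes are not a like reference. The fit leaned on particular libraries: of the 175 calls, 149 ended or could not be tested without the pre2-2 siTet1 library, 120 without pre2-2 control siRNA, 91 without pre3 control siRNA and 39 without pre3 siTet1.

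Calls held with every library left out for 17 genes, and for 10 of these also under DESeq2, limma, pooled controls and each other setting that kept the line and called genes at an adjusted p under 0.05 alone: Spp1, Tnc, Col18a1, Itga3, Cdh1, Dppa5a, Aldh1a3, Car2 and Vwa5a, which rose, and Reep1, which fell. Of these, Tnc (0.80) and Car2 (0.96) lay under a log2 change of 1 and were not called where that size was also asked for. Spp1 and Tnc encode secreted proteins of the pericellular matrix, Col18a1 a basement membrane collagen, Itga3 a laminin receptor subunit, and Reep1 a protein that shapes the endoplasmic reticulum. Since Tet1 acts on CpG sites, the 250 bases before the start site are shown for the 5 of them that are outside the epithelial and pluripotency lists and are held in RefSeq's promoter table (GRCm38.p6), with each CG in capitals. The windows are chr5:104434861-104435110, plus strand for Spp1, chr10:77166531-77166780, minus strand for Col18a1, chr11:95076715-95076964, minus strand for Itga3, chr4:64047016-64047265, minus strand for Tnc and chr6:71707431-71707680, plus strand for Reep1. They were chosen after the values were seen.
Spp1: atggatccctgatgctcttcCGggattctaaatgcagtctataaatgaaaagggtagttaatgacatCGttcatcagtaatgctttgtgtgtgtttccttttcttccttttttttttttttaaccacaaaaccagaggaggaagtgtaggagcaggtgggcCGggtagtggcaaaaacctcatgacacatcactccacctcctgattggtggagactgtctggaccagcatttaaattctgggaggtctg
Col18a1: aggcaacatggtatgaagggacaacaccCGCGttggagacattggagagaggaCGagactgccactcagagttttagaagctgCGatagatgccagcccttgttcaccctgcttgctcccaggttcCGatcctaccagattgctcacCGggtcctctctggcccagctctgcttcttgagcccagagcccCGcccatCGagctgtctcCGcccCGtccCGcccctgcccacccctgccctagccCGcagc
Itga3: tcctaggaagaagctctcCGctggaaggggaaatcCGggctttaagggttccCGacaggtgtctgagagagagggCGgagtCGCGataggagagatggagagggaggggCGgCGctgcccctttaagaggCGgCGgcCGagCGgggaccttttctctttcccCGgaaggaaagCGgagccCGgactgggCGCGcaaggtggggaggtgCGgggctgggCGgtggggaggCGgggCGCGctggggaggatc
Tnc: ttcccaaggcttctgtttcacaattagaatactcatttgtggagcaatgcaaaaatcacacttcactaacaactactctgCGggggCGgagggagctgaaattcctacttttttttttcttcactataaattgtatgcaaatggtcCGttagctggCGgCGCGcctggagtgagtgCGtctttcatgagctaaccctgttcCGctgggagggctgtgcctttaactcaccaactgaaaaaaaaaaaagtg
Reep1: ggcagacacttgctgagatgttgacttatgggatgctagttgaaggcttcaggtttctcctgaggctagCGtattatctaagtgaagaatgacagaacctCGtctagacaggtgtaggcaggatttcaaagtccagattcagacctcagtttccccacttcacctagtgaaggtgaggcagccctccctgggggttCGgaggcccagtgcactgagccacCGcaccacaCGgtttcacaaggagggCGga
These windows hold 3, 12, 22, 8 and 6 CG pairs in that order, and the median tested gene with a window holds 17. The set runs from a CG-poor window at Spp1 to a CG-dense one at Itga3, the only one above that median. Over called genes with a window, the median was 13.5 CG pairs for raised genes and 7 for lowered ones. Among the lowered it was 4 in the interferon list and 13.5 outside it. Only 63.0% of the raised and 77.1% of the lowered genes matched the table, against 80.0% of all tested genes. These medians thus cover part of each set, and their difference was not tested. No methylation was measured in these samples.

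Spp1, the secreted phosphoprotein osteopontin, was at 1037, 871 and 2549 CPM in pre2-2 and 463, 449.9 and 1089 CPM in pre3 in the order untransfected, control siRNA, siTet1. The siTet1 library was the highest of its line by a wide margin in both lines. The siTet1 and control siRNA groups did not overlap, and 12.6% of all tested genes had siTet1 above in this way. Spp1 rose by 1.42 (SE 0.10, adjusted p = 8.8e-10), with counting intervals of 1.47 to 1.63 in pre2-2 and 1.16 to 1.39 in pre3. Tnc, which encodes the matrix glycoprotein tenascin-C, stood at 631, 1072 and 1869.7 CPM in pre2-2 and 149, 187 and 326 CPM in pre3. Here the line set the level, so that control siRNA in pre2-2 exceeded siTet1 in pre3, but within each line the change was the same, 0.80 and 0.80, and the fitted rise was 0.80 (SE 0.11, adjusted p = 0.00014). In both lines untransfected cells were the lowest.

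Itga3, which pairs with a beta1 chain to bind laminins, was at 159, 145 and 305 CPM in pre2-2 and 112, 74.6 and 153 CPM in pre3. Both siTet1 libraries were the highest of their line and the control siRNA library the lowest. It rose by 1.06 (SE 0.14, adjusted p = 9e-05). Reep1 was at 63.3, 78.4 and 35.6 CPM in pre2-2 and 132, 135 and 69.1 CPM in pre3, the siTet1 library being the lowest in each line. It fell by 1.04 (SE 0.16, adjusted p = 0.00044), close to 2-fold in both lines.

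Of these 10 genes, 2 lie outside the naming rule and are given because their calls held. Car2, the cytosolic carbonic anhydrase 2, was at 96.7, 146 and 267 CPM in pre2-2 and 15.9, 26.1 and 58.0 CPM in pre3, and rose by 0.96 (SE 0.15, adjusted p = 0.00059). Vwa5a, a gene with a von Willebrand factor A domain, was at 66.0, 75.9 and 161 CPM in pre2-2 and 64.1, 33.0 and 87.8 CPM in pre3, and rose by 1.20 (SE 0.19, adjusted p = 0.00059). For both genes siTet1 was the highest library in each line. Among the genes that held with every library left out but not in those other settings, again outside the rule, were the genes of the urothelial protein Upk1b, from 12.7 to 34.7 CPM in pre2-2 and from 6.93 to 30.3 CPM in pre3, of periplakin (Ppl), a desmosomal linker of stratified epithelia, from 6.07 to 28.6 CPM in pre2-2 and from 9.06 to 29.3 CPM in pre3, of the aldehyde dehydrogenase Aldh3a1, from 21.3 to 45.0 CPM in pre2-2 and from 6.93 to 32.4 CPM in pre3, and of the protease inhibitor A2m, from 0.506 to 9.37 CPM in pre2-2 and from 20.8 to 52.1 CPM in pre3. DESeq2 called none of these last 4. The control siRNA level of A2m in pre2-2 lay under the 1.52 CPM that 3 counts represent in that library.

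**Figure D2:**
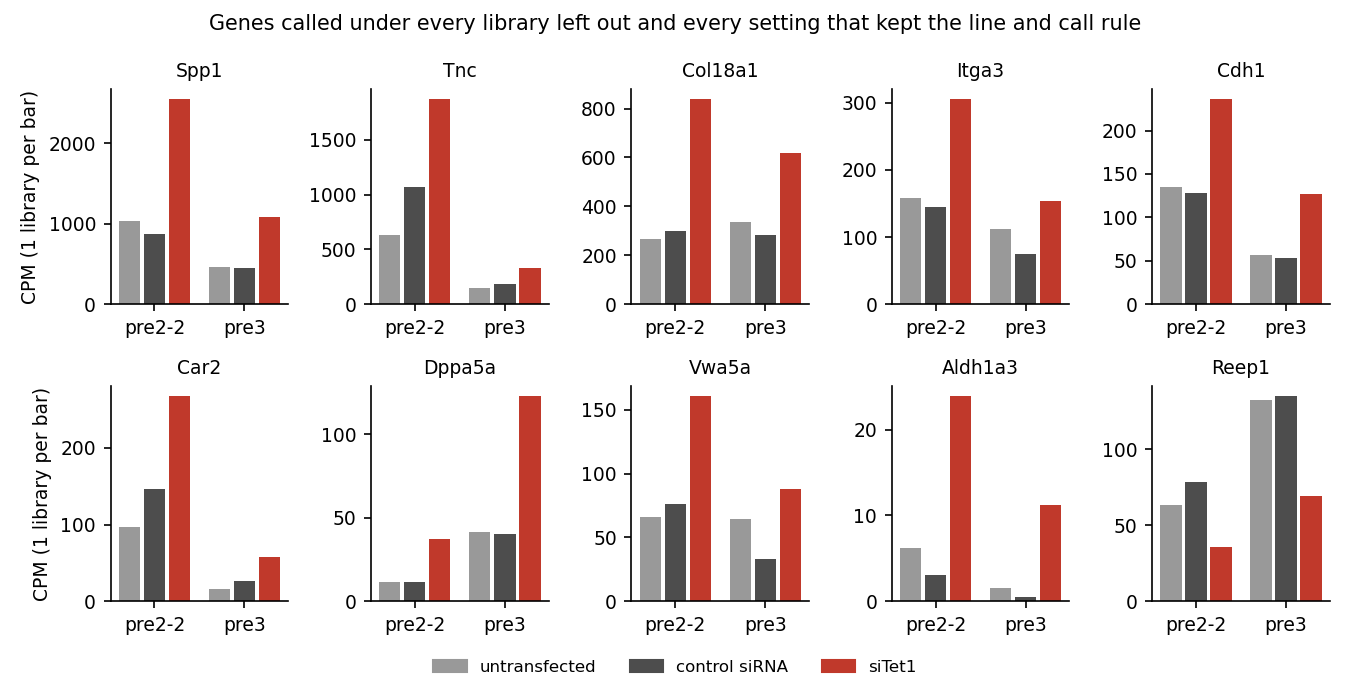
Expression in CPM (vertical axes, from 0, a separate scale for each gene) of the 10 genes called under every left-out library and every setting that kept the line and set no minimum change, 1 bar per library in untransfected (light grey), control siRNA (dark grey) and siTet1 (red) cells of each line. In each line siTet1 is the highest bar for 9 genes and the lowest for Reep1, while the level itself differs between lines, as for Tnc and Dppa5a.

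The extracellular matrix lists held changes in both directions. Of 38 fibrillar matrix genes, that is collagens, their crosslinking enzymes and associated glycoproteins, 5 rose (Loxl4, Tnc, Thbs2, Ltbp1, Col3a1) and 1, Thbs1, fell, where 1.15% and 0.434% of all genes did. The list's median change was 0.08 over both lines, -0.00 in pre2-2 and 0.24 in pre3. Of 23 basement membrane genes, 4 rose (Col18a1, Nid2, Lama5, Lamb2) and 0 fell, and 19 of the 23 had the same sign in both lines, against 60.1% of all genes. Its median was 0.11 over both lines, 0.11 in pre2-2 and 0.19 in pre3. Col18a1, whose collagen XVIII releases endostatin, was at 265, 299 and 838 CPM in pre2-2 and 335, 283 and 619 CPM in pre3, siTet1 being at least 2-fold above both other libraries of pre2-2 and well above both in pre3. It rose by 1.32 (SE 0.13, adjusted p = 9.1e-07).

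Loxl4, a lysyl oxidase that crosslinks collagen, went from 206 to 375 CPM in pre2-2 and from 127 to 255 CPM in pre3, a rise of 0.92 (SE 0.16, adjusted p = 0.0012) whose call ended without pre2-2 siTet1 (0.74) or pre3 control siRNA (0.67). Thbs2, an inhibitor of angiogenesis, went from 60.2 to 117 CPM in pre2-2 and from 25.6 to 34.6 CPM in pre3 and rose by 0.78 (SE 0.19, adjusted p = 0.032). Its related gene Thbs1 moved the other way, from 1499 to 891 CPM in pre2-2 and from 173 to 112 CPM in pre3, a fall of 0.70 (SE 0.14, adjusted p = 0.0063). The untransfected levels of Thbs1 were 373 and 80.5 CPM, below the siTet1 libraries, so control siRNA was the highest library in both lines. With pre2-2 control siRNA left out, its change was -0.41 and it missed the threshold. The call of Thbs2 ended without pre2-2 control siRNA (0.58), pre2-2 siTet1 (0.42) or pre3 control siRNA (0.85). Ltbp1, which tethers latent TGF-beta to the matrix, rose by 0.57 (SE 0.14, adjusted p = 0.027), from 238 to 333 CPM in pre2-2 and from 180.2 to 288 CPM in pre3, with its call ending without pre2-2 siTet1 (0.51) or pre3 control siRNA (0.36). Col3a1, a fibrillar collagen of loose connective tissue, rose by 0.54 (SE 0.14, adjusted p = 0.044), from 225 to 288 CPM in pre2-2 and from 132 to 225 CPM in pre3. Its call ended without pre2-2 siTet1 (0.59), pre3 control siRNA (0.28) or pre3 siTet1 (0.50) and its value was 0.83 without pre2-2 control siRNA. The abundant collagens Col1a1 (-0.25) and Col1a2 (-0.10) were not called.

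Among the laminin-associated genes the changes were smaller than 2-fold. Nid2, a linker of laminin and collagen IV, went from 91.6 to 148 CPM in pre2-2 and from 154 to 209 CPM in pre3 and rose by 0.56 (SE 0.14, adjusted p = 0.03). Lama5, the laminin alpha5 chain, went from 495 to 687 CPM in pre2-2 and from 517 to 646 CPM in pre3 and rose by 0.40 (SE 0.10, adjusted p = 0.044). Lamb2, the laminin beta2 chain, went from 131 to 178 CPM in pre2-2 and from 167 to 243 CPM in pre3 and rose by 0.49 (SE 0.13, adjusted p = 0.048). Groups lay apart with siTet1 above in 12.6% of all tested genes. In Nid2, Lama5 and Lamb2 the siTet1 library was the higher in both lines, and the groups overlapped only for Nid2. Their calls were fragile: Nid2 was lost without pre2-2 control siRNA (0.52), pre2-2 siTet1 (0.44) or pre3 control siRNA (0.60), Lama5 without pre2-2 control siRNA (0.34), pre2-2 siTet1 (0.34), pre3 control siRNA (0.43) or pre3 siTet1 (0.45), and Lamb2 without pre2-2 control siRNA (0.56), pre2-2 siTet1 (0.49), pre3 control siRNA (0.40) or pre3 siTet1 (0.49). Lamc1, the laminin gamma1 chain, was at -0.31 (adjusted p = 0.18). Of 28 genes of matrix proteases and their inhibitors, 0 were called, while 23 had a positive sign (82.1%, against 50.7% of all genes), with a median of 0.34 over both lines, 0.26 in pre2-2 and 0.40 in pre3. Among them were Plaur, the urokinase receptor (0.47, adjusted p = 0.16), and Adamts7 (0.41, adjusted p = 0.16).

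**Figure D3:**
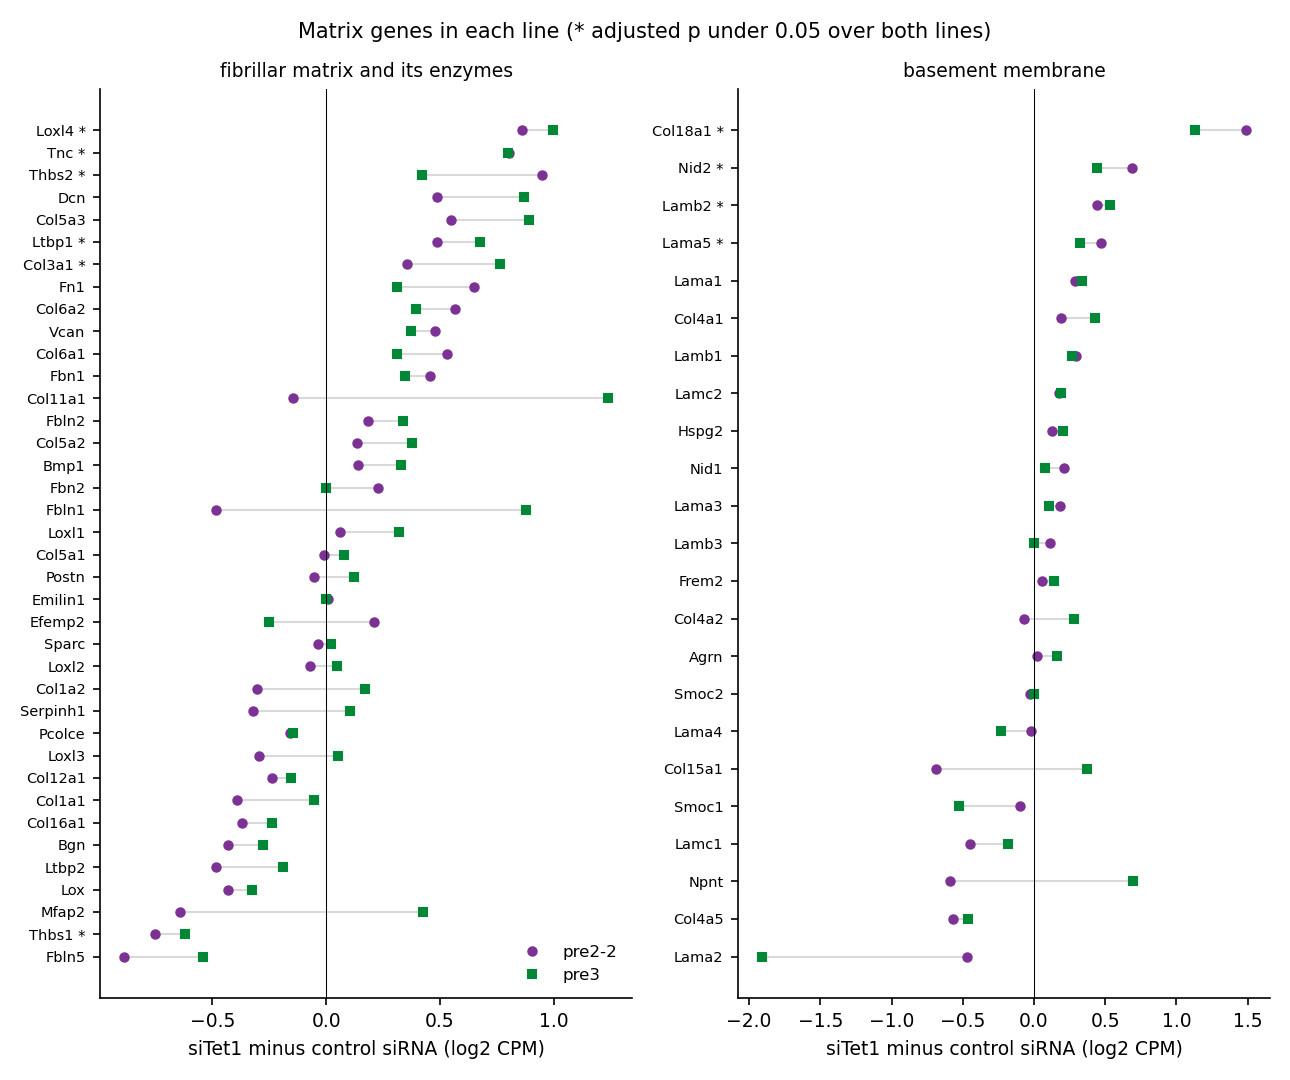
Change of every tested gene of the fibrillar matrix list (left) and the basement membrane list (right) in pre2-2 (purple circles) and pre3 (green squares), as log2 CPM with siTet1 minus control siRNA, 1 library against 1 per line. Starred genes were called over both lines; Col18a1 and Tnc lie above 0 in both lines, Thbs1 lies below 0 in both, and Col11a1, Fbln1 and Col15a1 took opposite signs.

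Genes of cell contact gave few calls, all of them higher. Of 14 integrin genes only Itga3 was called, and Itga4 lay at -0.83 (adjusted p = 0.12). Of 19 genes of tight junctions, connexins and the MAL family, 3 rose and 0 fell, with a median of 0.19. Over all tested genes 1.15% rose and 0.434% fell. Cldn11, a claudin that seals junctions, went from 52.1 to 90.9 CPM in pre2-2 and from 98.6 to 179.8 CPM in pre3 and rose by 0.84 (SE 0.15, adjusted p = 0.0016), with siTet1 above control siRNA in each line but groups that overlapped across lines. Its untransfected levels were 61.8 and 141 CPM. Mal, a membrane protein of apical transport, went from 226 to 422 CPM in pre2-2 and from 160.4 to 231 CPM in pre3 and rose by 0.74 (SE 0.15, adjusted p = 0.007). Its relative Mall went from 5.06 to 27.2 CPM in pre2-2 and from 2.67 to 5.85 CPM in pre3 and rose by 2.02 (SE 0.47, adjusted p = 0.021). The call of Cldn11 ended without pre3 control siRNA (0.73), that of Mal without pre2-2 siTet1 (0.39) or pre3 control siRNA (0.68), and that of Mall without pre2-2 control siRNA (1.15) or pre2-2 siTet1 (1.28). Of 20 cadherin and protocadherin genes outside the epithelial list, 0 were called and 17 had a positive sign. In the epithelial list, Cdh1, which encodes E-cadherin, went from 129 to 236 CPM in pre2-2 and from 52.8 to 127 CPM in pre3, and Krt19, a simple epithelial keratin, from 66.3 to 135 CPM in pre2-2 and from 100.2 to 134 CPM in pre3, whose call ended without pre2-2 control siRNA (0.62), pre2-2 siTet1 (0.37) or pre3 control siRNA (0.82), while Krt8 lay at -0.39 (adjusted p = 0.63).

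Lists of secreted ligands and their signalling pathways held 0 to 2 called genes each. Of 20 cytokine genes, Spp1 and Prg4 rose and 0 fell, where 1.15% and 0.434% of all genes did. Prg4, the lubricating proteoglycan of joint surfaces, was at 2.72, 4.05 and 14.5 CPM in pre2-2 and 3.08, 2.13 and 11.2 CPM in pre3, low in every library other than siTet1. It rose by 2.03 (SE 0.49, adjusted p = 0.032), and the call ended without pre2-2 control siRNA (2.44), pre2-2 siTet1 (2.02), pre3 control siRNA (1.74) or pre3 siTet1 (2.04). Of 56 genes of FGF, PDGF and ERK signalling, Igf2 and Spred1 rose and 0 fell. A positive sign was held by 43 (76.8%, against 50.7% of all genes). The list's median was 0.28 over both lines, 0.34 in pre2-2 and 0.17 in pre3. Igf2, a fetal growth factor expressed from the paternal allele, went from 286 to 424 CPM in pre2-2 and from 104 to 159.6 CPM in pre3 and rose by 0.58 (SE 0.13, adjusted p = 0.018). Spred1, an inhibitor of Ras-ERK signalling, went from 103 to 172 CPM in pre2-2 and from 101 to 136 CPM in pre3 and rose by 0.60 (SE 0.14, adjusted p = 0.028). Igf2 was called no more without pre2-2 control siRNA (0.72), pre2-2 siTet1 (0.48) or pre3 control siRNA (0.46), and Spred1 no more without pre2-2 control siRNA (0.53), pre2-2 siTet1 (0.41) or pre3 control siRNA (0.63). For Igf2, 61.2% of its 50-base words are also in an overlapping gene model, so its count is uncertain.

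In the Wnt list, of 31 genes only Notum was called. Notum, an enzyme that removes the lipid of Wnt ligands, went from 24.3 to 39.8 CPM in pre2-2 and from 21.9 to 48.9 CPM in pre3 and rose by 0.93 (SE 0.22, adjusted p = 0.024), with its call lost without pre2-2 control siRNA (1.098), pre2-2 siTet1 (1.13), pre3 control siRNA (0.75) or pre3 siTet1 (0.74). Of 45 TGF-beta, Nodal and BMP genes only Tdgf1, the Nodal co-receptor Cripto, was called. It was at 520.2, 461 and 828 CPM in pre2-2 and 861, 620.5 and 935 CPM in pre3, with the control siRNA library the lowest in each line, and rose by 0.72 (SE 0.11, adjusted p = 0.00054), a call that ended without pre2-2 siTet1 (0.52) and with the controls pooled. Cntfr, the ciliary neurotrophic factor receptor, lies in none of the lists and went from 5.57 to 30.4 CPM in pre2-2 and from 5.86 to 15.4 CPM in pre3, a rise of 1.99 (SE 0.44, adjusted p = 0.016) that was not called without pre2-2 control siRNA (1.82) or pre2-2 siTet1 (0.99). Of 24 Notch and 12 Hedgehog pathway genes 0 were called.

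Guidance genes, known from axons and vessels, were raised in 3 of 45 cases with 0 lowered, where 1.15% and 0.434% of all genes were. A positive sign was held by 36 (80.0%, against 50.7% of all genes). Robo4, a receptor of endothelial cells, was at 1.55, 4.55 and 22.01 CPM in pre2-2 and 1.54, 1.07 and 12.8 CPM in pre3, with siTet1 above every other library in both lines. In pre3, Robo4 had only 2 counts with control siRNA, so the size of its change is uncertain. It rose by 2.61 (SE 0.48, adjusted p = 0.0027), and the call ended without pre2-2 siTet1 (2.84) or pre3 control siRNA (2.18). Ntn1, the ligand netrin-1, went from 307 to 555 CPM in pre2-2 and from 223 to 287 CPM in pre3 and rose by 0.63 (SE 0.12, adjusted p = 0.0059). Nrp2, a co-receptor of semaphorins and VEGF, went from 109.8 to 186 CPM in pre2-2 and from 139.7 to 191 CPM in pre3 and rose by 0.61 (SE 0.13, adjusted p = 0.015). The call of Ntn1 was lost without pre2-2 control siRNA (0.47) or pre2-2 siTet1 (0.40), and that of Nrp2 without pre2-2 control siRNA (0.48), pre2-2 siTet1 (0.51) or pre3 control siRNA (0.72). Robo4 was the only called gene among 13 of the endothelial list. The 8 endothelial markers summed to 45.9 TPM with control siRNA and 51.8 with siTet1 in pre2-2 and to 33.9 and 45.5 in pre3, with Cldn5 at 0, and their part in the Robo4 result was not tested.

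The retinoid genes Aldh1a3 and Rdh16 rose out of 19 tested, and 0 fell, where 1.15% and 0.434% of all genes did. Aldh1a3, which oxidises retinaldehyde to retinoic acid, was at 6.22, 3.04 and 23.9 CPM in pre2-2 and 1.54, 0.533 and 11.2 CPM in pre3. Its rise of 3.28 (SE 0.52, adjusted p = 0.00059) started from a low level: control siRNA in pre3 lay under the floor of 1.60 CPM that 3 counts represent in that library. Both siTet1 libraries lay above all 4 others. Rdh16, a retinol dehydrogenase, went from 1.52 to 14.99 CPM in pre2-2 and from 3.73 to 10.6 CPM in pre3 and rose by 2.26 (SE 0.56, adjusted p = 0.034), with its call ending without pre2-2 control siRNA (1.30), pre2-2 siTet1 (2.19) or pre3 siTet1 (2.32). The list's median was 0.15 over both lines, 0.11 in pre2-2 and 0.22 in pre3.

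In the list of Rhox and placental genes, all 9 tested had a positive sign (against 50.7% of all genes). Of these, 4 rose (against 1.15% of all genes): Rhox6, Peg10, Ceacam1 and Igf2. The list's median was 0.58 over both lines, 0.74 in pre2-2 and 0.42 in pre3. Rhox6, an X-linked homeobox gene of the placenta, was at 0.389, 0 and 5.62 CPM in pre2-2 and 11.3, 6.397 and 47.3 CPM in pre3, nearly absent from pre2-2 apart from the siTet1 library. It rose by 3.10 (SE 0.46, adjusted p = 0.00031). Its value was 6.34 and no longer called without the pre3 control siRNA library, and 4.90 without pre3 siTet1. Peg10, a retrotransposon-derived imprinted gene needed for the placenta, was at 50.5, 144 and 451 CPM in pre2-2 and 2.05, 11.2 and 17.6 CPM in pre3, so that both its level and its change were larger in pre2-2. It rose by 1.49 (SE 0.18, adjusted p = 1.6e-05), and the call ended without pre2-2 control siRNA (0.65) or pre2-2 siTet1 (0.84).

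Ceacam1, an adhesion protein of epithelia and trophoblast, was at 26.0, 20.2 and 101 CPM in pre2-2 and 53.9, 38.9 and 59.6 CPM in pre3, and the siTet1 library of pre2-2 stood apart. It rose by 1.49 (SE 0.28, adjusted p = 0.0035), by 2.26 in pre2-2 and 0.60 in pre3. Without the pre2-2 siTet1 library the value was 0.60 and not called, and without pre3 siTet1 it was 2.34. Words shared with Ceacam2 make up 30.4% of its sequence, and the sum of both genes still went from 23.8 to 104.5 CPM in pre2-2 and from 41.1 to 64.5 CPM in pre3. Of 7 trophoblast markers 0 to 1 had 3 counts in a library, with Elf5, Hand1, Tpbpa and Plac1 at 0. Among 28 imprinted genes Peg10 and Igf2 alone were called.

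Homeobox genes outside the Hox clusters gave 1 call in 35, a fall of Tlx3, with a list median of 0.23 over both lines, 0.30 in pre2-2 and 0.17 in pre3. Tlx3, a factor of neuron fate, was at 7.38, 10.6 and 1.41 CPM in pre2-2 and 9.75, 15.5 and 5.32 CPM in pre3, lowest with siTet1 in both lines. It fell by 1.99 (SE 0.48, adjusted p = 0.031), and the call ended without pre2-2 control siRNA (-1.88), pre2-2 siTet1 (-1.49) or pre3 control siRNA (-2.16). Evx1 (1.68, adjusted p = 0.064), Gbx2 (1.28, adjusted p = 0.088) and Otx2 (1.04, adjusted p = 0.16), which pattern the early embryo, were the largest positive values and were not called. Of 19 Hox genes 0 were called. In the neural list of 21 genes, 1 rose and 1 fell. Gap43, a growth cone protein, went from 8.603 to 24.8 CPM in pre2-2 and from 2.13 to 7.45 CPM in pre3, a rise of 1.58 (SE 0.41, adjusted p = 0.049). Tph1, the tryptophan hydroxylase of serotonin synthesis, went from 13.2 to 0.468 CPM in pre2-2 and from 5.86 to 1.60 CPM in pre3, a fall of 3.17 (SE 0.70, adjusted p = 0.015). Its siTet1 level in pre2-2 was 1 count, so the size of the fall is uncertain. Gap43 was lost without pre2-2 control siRNA (1.84), pre2-2 siTet1 (1.57), pre3 control siRNA (1.47) or pre3 siTet1 (1.58), and Tph1 without pre2-2 control siRNA (-2.32) or pre2-2 siTet1 (-2.18).

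Metabolic and transport lists gave 1 or 2 calls each. Taldo1, transaldolase of the pentose phosphate pathway, went from 85.5 to 148 CPM in pre2-2 and from 67.7 to 118 CPM in pre3 and rose by 0.79 (SE 0.14, adjusted p = 0.0022), in step in the 2 lines. Gsta4, a glutathione transferase that clears lipid peroxidation products, went from 257 to 395 CPM in pre2-2 and from 383 to 509 CPM in pre3 and rose by 0.52 (SE 0.11, adjusted p = 0.016). Pfkm, the muscle-type phosphofructokinase, went from 51.6 to 95.1 CPM in pre2-2 and from 80.5 to 121 CPM in pre3 and rose by 0.74 (SE 0.18, adjusted p = 0.033). These were 2 of 41 antioxidant and 1 of 39 glycolysis and hypoxia genes, where 1.15% of all genes rose. In all 3 the siTet1 library was the higher in each line, but each call was lost in several fits: Taldo1 without pre2-2 control siRNA (0.81), pre2-2 siTet1 (0.77) or pre3 control siRNA (0.75), Gsta4 without pre2-2 control siRNA (0.50), pre2-2 siTet1 (0.38) or pre3 control siRNA (0.51), and Pfkm without pre2-2 control siRNA (0.81), pre2-2 siTet1 (0.44) or pre3 control siRNA (0.64).

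Abca1, the exporter of cellular cholesterol, was the call among 42 cholesterol and fatty acid genes. It went from 227 to 371 CPM in pre2-2 and from 144 to 189.9 CPM in pre3, a rise of 0.57 (SE 0.13, adjusted p = 0.015). Slc12a3, a sodium chloride cotransporter, was the call among 163 solute carriers, a share under the 1.15% of all genes that rose, and went from 3.04 to 14.5 CPM in pre2-2 and from 1.60 to 7.98 CPM in pre3, a rise of 2.25 (SE 0.54, adjusted p = 0.028). Kcnh1, a voltage-gated potassium channel, was the call among 39 ion channels. It went from 3.04 to 6.56 CPM in pre2-2 and from 3.73 to 21.8 CPM in pre3, a rise of 1.97 (SE 0.50, adjusted p = 0.042) that was larger in pre3. Acta1, skeletal muscle actin, was the call among 29 contractile genes and differed in pre2-2 and not in pre3, from 7.59 to 38.9 CPM in pre2-2 and from 2.67 to 2.66 CPM in pre3. Its fitted value was 1.90 (SE 0.46, adjusted p = 0.032), which became -0.12 on leaving out pre2-2 control siRNA and 0.48 on leaving out pre2-2 siTet1, in each case not called. The calls of Abca1 ended without pre2-2 control siRNA (0.42), pre2-2 siTet1 (0.47) or pre3 control siRNA (0.67), of Slc12a3 without pre2-2 control siRNA (2.42), pre2-2 siTet1 (2.00) or pre3 control siRNA (2.11), and of Kcnh1 without pre2-2 siTet1 (2.25), pre3 control siRNA (1.07) or pre3 siTet1 (1.46). Of 6 muscle markers, 1 had at least 3 counts in each library, and Myog, Myod1 and Tnnt3 were at 0 with siTet1 and control siRNA. The markers summed to 4.95 TPM with control siRNA and 5.71 with siTet1 in pre2-2, and to 8.17 and 6.24 in pre3.

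Genes of proliferation and protein folding took small negative values. None of 63 mitosis genes was called, but 59 had a negative sign (against 5452 of 11048 tested genes), and 56 had the same sign in both lines. The list's median was -0.21 over both lines, -0.20 in pre2-2 and -0.21 in pre3. Mki67, the proliferation antigen, lay at -0.36 (adjusted p = 0.077). Of 65 DNA replication genes 0 were called and 52 were negative, with a median of -0.13. Ccnd1, cyclin D1 of the G1 phase, is in neither list and went from 801 to 422 CPM in pre2-2 and from 391.8 to 296 CPM in pre3. It fell by 0.67 (SE 0.12, adjusted p = 0.0016), more in pre2-2 than in pre3, and its call ended without pre2-2 control siRNA (-0.51) or pre2-2 siTet1 (-0.43). Of 45 genes of serine and asparagine synthesis and other ATF4 targets, 36 were negative and 1 fell, where 0.434% of all genes did. That gene, Psat1, which encodes phosphoserine aminotransferase, was at 304, 225 and 145 CPM in pre2-2 and 397, 349 and 216 CPM in pre3. It was lowest with siTet1 in both lines and fell by 0.67 (SE 0.12, adjusted p = 0.0026), a call that ended without pre2-2 siTet1 (-0.62) or pre3 control siRNA (-0.60).

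Of 40 genes of the unfolded protein response and chaperones, Hsp90aa1 fell and 30 were negative (against 5452 of 11048 tested genes). Hsp90aa1, the inducible cytosolic HSP90, went from 1422 to 999 CPM in pre2-2 and from 1497 to 1206 CPM in pre3, a fall of 0.41 (SE 0.10, adjusted p = 0.034) lost without pre2-2 control siRNA (-0.43), pre2-2 siTet1 (-0.23) or pre3 control siRNA (-0.40). Its words are shared with processed pseudogenes at 47.5%, so its count is uncertain. In the list of p53 targets and cell cycle inhibitors, 1 gene of 47 rose and 1 fell. Sfn, 14-3-3 sigma, a cell cycle brake of epithelial cells, went from 424 to 666 CPM in pre2-2 and from 91.2 to 164 CPM in pre3 and rose by 0.73 (SE 0.12, adjusted p = 0.001), with the call lost without pre2-2 siTet1 (0.75) or pre3 control siRNA (0.60). Eda2r, a receptor for an ectodysplasin isoform, went from 105 to 70.7 CPM in pre2-2 and from 164 to 115 CPM in pre3 and fell by 0.53 (SE 0.14, adjusted p = 0.048), with the call lost without pre2-2 control siRNA (-0.55), pre2-2 siTet1 (-0.48), pre3 control siRNA (-0.54) or pre3 siTet1 (-0.60).

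Several house-keeping and chromatin lists gave 0 calls, against 1.58% called over all genes. No set test was run on these lists. They were 87 respiratory chain, 79 cytosolic ribosomal, 76 mitochondrial ribosomal and 35 proteasome genes. The same held for 59 polycomb, Sin3 and NuRD genes, 32 genes of DNA methylation and demethylation other than Tet1, 22 jumonji histone demethylases, and 22 collagen and HIF hydroxylases, the last 2 classes being further vitamin C dependent dioxygenases. Uhrf1, which directs maintenance methylation, was at -0.19 (adjusted p = 0.58). Kdm3a, a jumonji demethylase, was at -0.24 (adjusted p = 0.52). Among 285 numbered zinc finger genes 2 rose, a share under the 1.15% of all genes: Zfp423, a regulator of fat and neural precursors, from 24.3 to 56.7 CPM in pre2-2 and from 12.8 to 18.6 CPM in pre3, and Zfp385a, from 74.9 to 116 CPM in pre2-2 and from 64.0 to 92.0 CPM in pre3. They rose by 0.98 and 0.58, with Zfp423 lost without pre2-2 control siRNA (0.72), pre2-2 siTet1 (0.54) or pre3 control siRNA (1.1004), and Zfp385a without pre2-2 control siRNA (0.50), pre2-2 siTet1 (0.59), pre3 control siRNA (0.63) or pre3 siTet1 (0.57). Of 51 lists with a gene tested, 21 had 0 called.

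**Figure D4:**
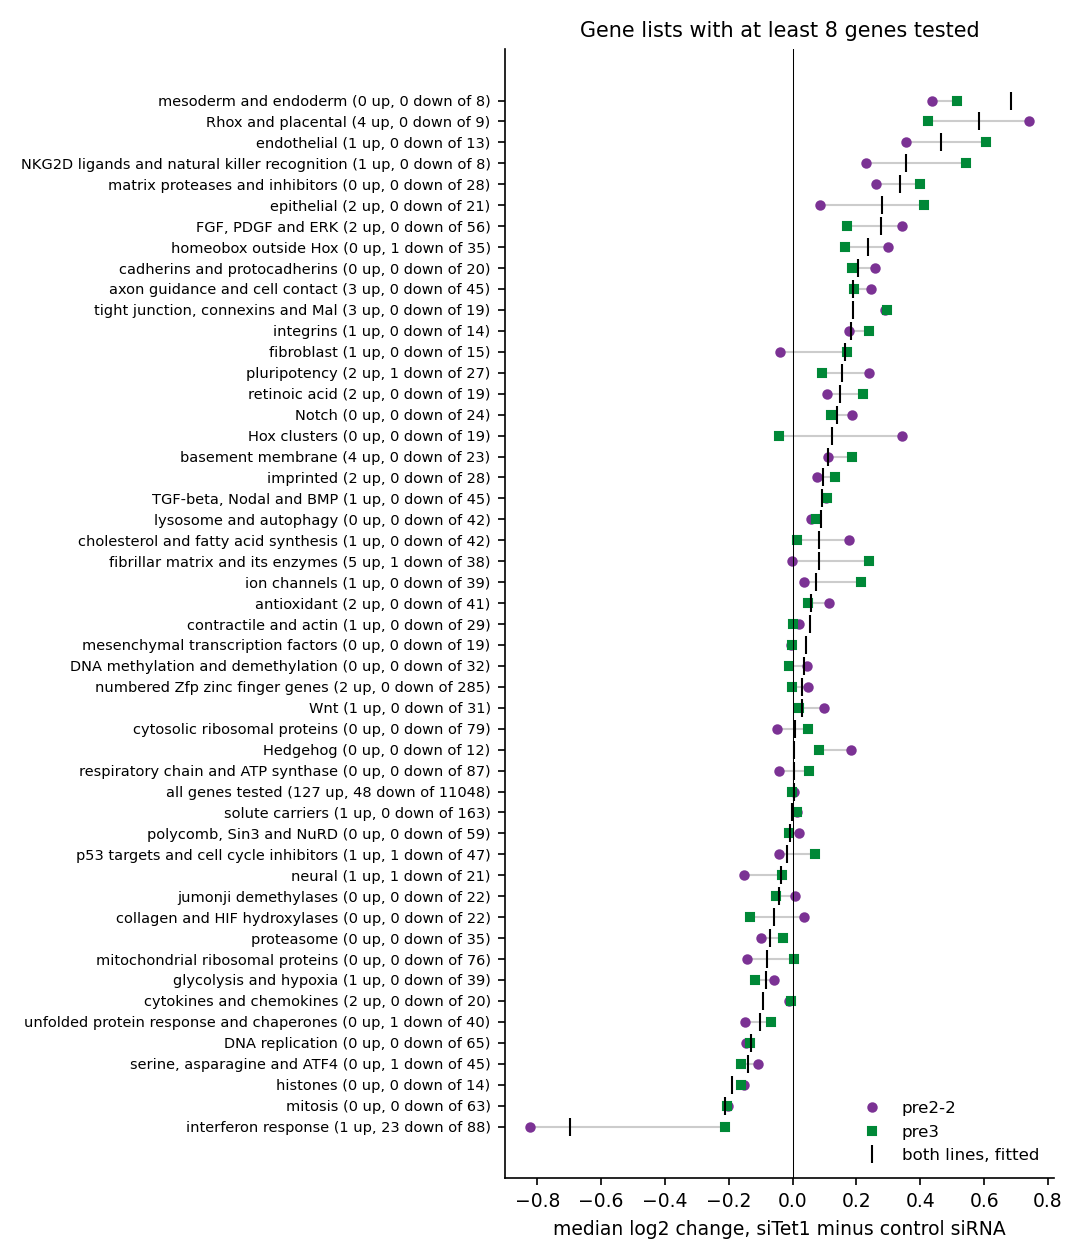
Median log2 change with siTet1 minus control siRNA over the tested genes of each list with at least 8 tested, in pre2-2 (purple circles), pre3 (green squares) and the fit over both lines (black bars), with counts of genes called in each direction. The interferon response list stands at -0.82 in pre2-2 and -0.21 in pre3, and mitosis at -0.20 and -0.21.

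Of the 127 raised genes, 84 lay in none of the lists. Fam167a, among the largest rises, went from 2.02 to 15.9 CPM in pre2-2 and from 1.60 to 9.04 CPM in pre3. Ccnjl, a cyclin J-like gene, went from 8.10 to 46.4 CPM in pre2-2 and from 1.07 to 3.19 CPM in pre3. Prkch, the eta isoform of protein kinase C, went from 2.53 to 19.203 CPM in pre2-2 and from 5.86 to 12.8 CPM in pre3. All 3 genes were low in control siRNA cells of both lines, and Ccnjl was low in all pre3 libraries. Their fitted rises were 2.74, 2.39 and 1.95, and their calls ended, for Fam167a, without pre2-2 control siRNA (2.45) or pre2-2 siTet1 (2.61), for Ccnjl without pre2-2 control siRNA (1.74) or pre2-2 siTet1 (1.62), and for Prkch without pre2-2 control siRNA (1.38) or pre2-2 siTet1 (1.12). Gm906 went from 1.01 to 12.6 CPM in pre2-2 and from 2.13 to 10.6 CPM in pre3 but shares 88.9% of its words with other gene models, so that its count is uncertain, and its call ended without pre2-2 control siRNA (2.33) or pre2-2 siTet1 (2.57). Lars2, the mitochondrial leucyl-tRNA synthetase, was the most abundant raised gene in none of the lists, at 170.2, 461 and 989.7 CPM in pre2-2 and 350.3, 556 and 903 CPM in pre3. Its control siRNA level lay between the untransfected and siTet1 levels in both lines, and it rose by 0.92 (SE 0.15, adjusted p = 0.00089), a call that ended without pre2-2 siTet1 (0.52). Epas1, the hypoxia factor HIF-2alpha, was chosen after its values were seen: it went from 148 to 374 CPM in pre2-2 and from 161 to 260.1 CPM in pre3, a rise of 1.04 (SE 0.16, adjusted p = 0.00054) that DESeq2 also called and that was lost without pre2-2 siTet1 (0.60).

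Outside the interferon list 25 genes fell, Tet1 among them. Atp10a, a phospholipid flippase, was at 23.3, 29.4 and 8.90 CPM in pre2-2 and 20.004, 27.7 and 11.2 CPM in pre3, with siTet1 lowest in each line. It fell by 1.51 (SE 0.28, adjusted p = 0.0028), a call that ended without pre2-2 siTet1 (-1.26). Uchl1, a neuronal ubiquitin hydrolase, was at 105, 81.0 and 35.1 CPM in pre2-2 and 29.7, 22.9 and 11.2 CPM in pre3, and here both control siRNA libraries were already below the untransfected ones. It fell by 1.16 (SE 0.21, adjusted p = 0.0021) and was lost without pre2-2 control siRNA (-1.12) or pre2-2 siTet1 (-1.02). E130309F12Rik, a lipid phosphatase-related gene now named Plppr1, went from 13.2 to 0.937 CPM in pre2-2 and from 3.20 to 0 CPM in pre3, with 2 counts or fewer per siTet1 library. Leaving out pre2-2 siTet1 ended the call (-5.08). Necab1, a neuronal calcium-binding protein, went from 51.1 to 23.4 CPM in pre2-2 and from 12.8 to 7.98 CPM in pre3, and 5930434B04Rik, now Cacfd1, from 22.8 to 13.1 CPM in pre2-2 and from 41.0 to 17.6 CPM in pre3. They fell by 1.00 and 1.04, with Necab1 lost without pre2-2 control siRNA (-0.96), pre2-2 siTet1 (-0.60) or pre3 control siRNA (-1.04), and 5930434B04Rik without pre2-2 siTet1 (-1.09), pre3 control siRNA (-0.76) or pre3 siTet1 (-0.97).

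Ifi27l1 behaved differently from these, at 3.50, 68.3 and 29.5 CPM in pre2-2 and 1.54, 37.8 and 16.0 CPM in pre3. Control siRNA was the highest library in each line, and untransfected cells were far below both transfected ones. It fell by 1.22 (SE 0.21, adjusted p = 0.0016), with the call lost without pre2-2 control siRNA (-1.27) or pre2-2 siTet1 (-1.22), and it was not placed in the interferon list, although it is annotated as alpha-interferon inducible. In the interferon list proper, 23 of 88 tested genes fell and 1, Ifitm1, rose (1.09, adjusted p = 0.045). The list's median was -0.82 in pre2-2 and -0.21 in pre3, closer to 0 in pre3, a difference that was not tested for the list. The prior count of 2 shrinks the within-line change of genes with few counts, and several list genes were low in pre3. Tgtp1 had 5 counts with control siRNA and 1 with siTet1 there, a CPM ratio of 0.20, and entered as -1.28. Apol9a, an interferon-induced apolipoprotein L, was at 0.777, 40.0 and 4.22 CPM in pre2-2 and 0, 6.397 and 1.06 CPM in pre3. Iigp1 went from 12.7 to 0.468 CPM in pre2-2 and from 0.533 to 0 CPM in pre3, and Tgtp1, like Iigp1 an immunity-related GTPase, from 50.6 to 6.09 CPM in pre2-2 and from 2.67 to 0.532 CPM in pre3, the latter sharing 81.2% of its words. All 3 were lost with the pre2-2 control siRNA or siTet1 library left out: Apol9a was at -2.69 and -2.50, Iigp1 at -6.43 and -2.64, and Tgtp1 at -4.75 and -1.46.

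Most windows found for the lowered interferon genes carried the sequence that names the class. The list was picked as interferon response genes, so a share above that of all genes comes with the choice and is no separate support. The core of the interferon response element, GAAA followed after 2 bases of any kind by another GAAA, on either strand, was in the 250-base windows of 12 of 19 lowered interferon genes with a RefSeq window (63.2%). It was in 26 of 70 list genes with a window (37.1%), in 2.42% of all tested genes with one and in 2.98% of 32851 promoters. Among raised genes with a window 2 of 80 held it (2.5%), Spp1 and Itga3, a share near that of all tested genes. Of lowered genes outside the list, 1 of 18 did. Windows were found for 63.0% of the raised genes and 72.0% of these lowered genes, so the shares cover part of each set. A match describes letters and not binding. Windows of 3 lowered genes, chosen after the values were seen, show how the core sits near the start site, with overlapping cores in capitals as 1 run: Irgm1 at chr11:48871421-48871670, minus strand, Isg15 at chr4:156200819-156201068, minus strand and Oas3 at chr5:120777660-120777909, minus strand, from RefSeq on GRCm38.p6.
Irgm1: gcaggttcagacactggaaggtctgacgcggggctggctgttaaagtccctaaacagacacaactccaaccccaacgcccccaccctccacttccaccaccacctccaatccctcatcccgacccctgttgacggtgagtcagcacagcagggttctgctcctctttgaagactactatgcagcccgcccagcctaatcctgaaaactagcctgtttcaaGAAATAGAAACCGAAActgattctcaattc
Isg15: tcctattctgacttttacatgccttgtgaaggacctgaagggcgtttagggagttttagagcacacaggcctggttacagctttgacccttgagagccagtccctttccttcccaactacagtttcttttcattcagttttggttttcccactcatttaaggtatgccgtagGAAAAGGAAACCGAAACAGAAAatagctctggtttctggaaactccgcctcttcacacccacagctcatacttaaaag
Oas3: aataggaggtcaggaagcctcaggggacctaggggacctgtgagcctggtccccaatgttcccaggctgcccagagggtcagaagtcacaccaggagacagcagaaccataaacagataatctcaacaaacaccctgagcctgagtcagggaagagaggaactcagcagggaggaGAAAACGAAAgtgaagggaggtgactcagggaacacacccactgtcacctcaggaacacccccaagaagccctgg
Irgm1, an immunity-related GTPase, went from 198 to 48.2 CPM in pre2-2 and from 18.7 to 6.91 CPM in pre3, a fall of 1.96 (SE 0.22, adjusted p = 6.3e-06). Isg15, a ubiquitin-like modifier, went from 74.4 to 20.6 CPM in pre2-2 and from 12.8 to 5.32 CPM in pre3, a fall of 1.71 (SE 0.28, adjusted p = 0.00076). Oas3, an oligoadenylate synthetase activated by double-stranded RNA, went from 48.1 to 15.5 CPM in pre2-2 and from 10.1 to 5.85 CPM in pre3, a fall of 1.39 (SE 0.35, adjusted p = 0.038). In each of the 3 genes siTet1 was the lower library in both lines. The call of Irgm1 ended without pre2-2 siTet1 (-1.19), of Isg15 without pre2-2 control siRNA (-1.43) or pre2-2 siTet1 (-1.20), and of Oas3 without pre2-2 control siRNA (-0.37) or pre2-2 siTet1 (-1.29). Untransfected levels were 81.6 and 3.59 CPM for Irgm1, 2.72 and 0 CPM for Isg15, and 6.60 and 6.67 CPM for Oas3.

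The largest fitted changes were of genes that share reads with a near copy, and they are uncertain. Gm4535 went from 0 to 30.4 CPM in pre2-2 and from 0 to 45.7 CPM in pre3, and Rangrf, a regulator of Ran, the other way, from 40.0 to 0 CPM in pre2-2 and from 42.6 to 0 CPM in pre3. Of the words of Gm4535, 59.1% are shared, Rangrf being the closest partner. Summed, the pair went from 40.0 to 30.4 CPM in pre2-2 and from 42.6 to 45.7 CPM in pre3, so the sum showed no common direction. Raet1c, a stress-induced ligand of the receptor NKG2D, went from 0 to 18.7 CPM in pre2-2 and from 0 to 5.85 CPM in pre3, while the sum over Raet1a to Raet1e went from 42.7 to 62.9 CPM and from 35.2 to 57.5 CPM. The summed rise was 0.55 in pre2-2 and 0.69 in pre3. The call of Raet1c ended without pre2-2 control siRNA (6.63), and the gene did not pass the filter without pre2-2 siTet1. Amd1 took 0 counts in both control siRNA libraries and 38.4 and 0 CPM with siTet1, and its sum with Amd2 was nearly flat, changing by -0.02 in pre2-2 and 0.04 in pre3. Rhox6 shares 16.5% of its words, and its sum with Rhox9 rose by 2.33 in pre2-2 and 3.20 in pre3. Dppa5a, expressed in pluripotent cells, which went from 11.6 to 37.0 CPM in pre2-2 and from 40.0 to 123 CPM in pre3, shares 38.6% of its words with pseudogenes and other genes.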

How the data were processed

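Expected counts and fractions per gene were made by the authors with RSEM 1.1.21 on mm9, per the submitters' processing notes; aligner settings are not given in the sources used here. The deposited expected counts (18.7 to 21.4% not whole, tolerance 0.005) were rounded. The deposited fraction was scaled to TPM for marker sums. Totals of 1868640 to 2582803 make 3 counts equal 1.17 to 1.60 CPM; counting intervals are 95%. edgeR 4.0.16 (R 4.3.3) was run with TMM, filterByExpr (minimum count 10), line plus treatment over all 6 libraries (2 residual degrees of freedom), and the two-sided quasi-likelihood test with Benjamini-Hochberg adjustment over 11048 genes; calls are at 0.05. Every adjusted p is from this fit. SE is the size of the log2 change over the square root of F. On data simulated for this comparison, 83 of 100 genes at a log2 change of 1 and 96 of 100 at 1.5 were recovered, with 10 false calls among 11048 genes. The simulation gave every gene the same dispersion (0.00755) and each changed gene the same fold in both lines. Changes were put only in genes above a mean log2 CPM of 3. Real genes differ in spread, so these figures are not error rates for the calls above. Within-line differences used log2 CPM with a prior count of 2, which shrinks the change of genes with few counts. DESeq2 1.42.0 and limma 3.58.1 were alternatives.

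The pairing is the cell line. Deviations from group means correlated at 0.772 between control siRNA and siTet1 libraries of a line, and at 0.667 to 0.703 with untransfected ones, across 11048 genes, so line stayed in the model. A fit of the 4 transfected libraries alone, line being its replicate block, called 385 genes higher and 228 lower.

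The comparison and the 52 gene lists (2011 tested genes) were chosen with earlier results of these data known. Kinases and a binding protein matched by symbol were taken out of the ribosomal list after the values were seen. Named were Tet1, the 15 largest rises and 10 largest falls outside the interferon, epithelial and pluripotency lists with 1 direction in both lines, the 10 most abundant called genes, every called member of the other lists, up to 3 of each excluded list and the 10 smallest interaction p-values. Shared words are 50-base words of GENCODE transcripts found in other genes. A whole-series TPM table was not used.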

Additional observations from a re-analysis of the deposited data

Results flagged for a closer look

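A fit with the interaction of line and siTet1 called 11 of 11048 genes (0.0996%) as changing differently in the 2 lines. In that fit a single residual degree of freedom remained, and the interaction sets each line's siTet1 library against both its untransfected and control siRNA libraries, after a common siRNA effect. It can therefore differ from the simple contrast of siTet1 with control siRNA. With the 2 control libraries of a line treated as replicates, 0 genes were called. Values are this fit's log2 siTet1 effect in pre3 minus that in pre2-2. They are not the difference between the within-line changes from control siRNA that the CPM values show.

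Ceacam1, the adhesion gene described above, differed by -1.76 (SE 0.33, adjusted p = 0.00039), having risen more in pre2-2. Fn1, which encodes fibronectin, differed by -0.78 (SE 0.16, adjusted p = 0.0013). It was at 2414, 3973 and 6239 CPM in pre2-2 and 3219.6, 2870.5 and 3557 CPM in pre3, in the order untransfected, control siRNA, siTet1, so siTet1 was highest in both lines but the rise was larger in pre2-2. Crispld2, a secreted glycoprotein gene, differed by 2.19 (SE 0.53, adjusted p = 0.036), going from 18.2 to 33.3 CPM in pre2-2 and from 6.397 to 50.0 CPM in pre3. Msc, a repressor of myogenesis, differed by 1.32 (SE 0.30, adjusted p = 0.013) and went from 58.2 to 33.7 CPM in pre2-2 and from 172 to 161 CPM in pre3. Irf1, an interferon regulatory factor, differed by 1.86 (SE 0.41, adjusted p = 0.01) and took opposite directions from control siRNA, from 31.9 to 21.1 CPM in pre2-2 and from 25.1 to 35.1 CPM in pre3. Untransfected levels, which also enter these values, were 7.38 CPM in pre2-2 and 2.05 CPM in pre3 for Crispld2. They were 80.4 and 102 CPM for Msc and 74.6 and 22.1 CPM for Irf1.

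Of the other 6 genes, 4 share words with near copies, Moap1 with an overlapping gene model, and the sharing of Gm14430 was not measured. 0610010B08Rik differed by 2.77 (SE 0.41, adjusted p = 1.7e-07), and Gm14434, which shares its sequence, and Gm14430 each by -8.43 (SE 1.57, adjusted p = 0.00031). Summed, these 3 went from 47.6 to 73.1 CPM in pre2-2 and from 50.6 to 72.4 CPM in pre3, alike in the 2 lines. Amd1 differed by -6.64 (SE 1.57, adjusted p = 0.026) and Amd2 by -1.23 (SE 0.27, adjusted p = 0.0081), while their sum changed by -0.02 in pre2-2 and 0.04 in pre3. Amd2 was at 0.389 CPM in untransfected pre2-2 and at 162 to 254 CPM in the other 5 libraries. Moap1, which shares 84.3% of its words with an overlapping gene model, differed by 2.50 (SE 0.57, adjusted p = 0.014), going from 9.11 to 19.7 CPM in pre2-2 and from 8.53 to 25.5 CPM in pre3, with 0 in untransfected pre3.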

How the results depend on the processing

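Counts of called genes moved widely with the fit. They were 127 higher and 48 lower as reported, 203 and 89 with no filter, 18 and 6 with DESeq2, 79 and 25 with limma-trend, 385 and 228 in the 4 transfected libraries alone with line as replicate block, and 61 and 28 at a log2 change of at least 1. With no replicate block, treatment alone over 6 libraries, edgeR called 0 and 0 (178 genes at an unadjusted p under 0.05). The number lower was 29 with a minimum count of 20 and 18 with pooled controls. Leaving out 1 library at a time gave 25 to 394 higher and 9 to 241 lower. The 25 and 9 were without pre2-2 siTet1. Without pre2-2 control siRNA they were 65 and 14, without pre3 control siRNA 59 and 47, and without an untransfected library 391 and 241 (pre2-2) or 394 and 238 (pre3). The interaction calls, 11 as reported, were 0 with pooled controls and 0 to 4 when a control library was also left out, the 4 being without pre2-2 control siRNA. Of the 175 calls, DESeq2 kept 24, limma-trend 103, pooled controls 97 and the 4-library fit 170. Genes 2-fold apart numbered 134 higher and 65 lower in pre2-2, and 93 and 37 in pre3, at a mean of 20 counts.

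Directions turned in 4 cases: Acta1 without the pre2-2 control siRNA library (-0.12, range over left-out libraries -0.12 to 2.34), 0610010B08Rik without pre3 siTet1 (-1.67, range -1.67 to 1.13), Amd2 without pre2-2 control siRNA (0.91, range -1.02 to 0.91) and Amd1 with pooled controls (-1.98). The cause was not tested. Other scalings kept the sign of every list median named with a direction. Depth limits the low genes: the median SE was 0.56 below a mean log2 CPM of 3 and 0.13 at 7 and over.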
